A study of Mus musculus with 12 samples.

Results

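The genes described here are 10 members of the BCL2 family, the proteins that set whether the mitochondrial outer membrane is opened during apoptosis. They are the survival genes Bcl2, Bcl2l1 and Mcl1, the pore-forming genes Bax and Bak1, and the BH3-only genes Bcl2l11, Bbc3, Pmaip1, Bid and Bad. Members were chosen by name, as all probes whose transcript accession in the array annotation belongs to these genes, so that 13 of the 55681 probes on the array and 10 of its 20018 named genes were taken. Bcl2l1, Mcl1 and Bad had 2 probes each and the other genes had 1. The main probe of each gene, its brightest, was well above background on all 12 arrays for all 10 genes. The second Bcl2l1 probe was above background on all arrays of no group and did not pass the filter, which left 12 of the 13 probes.

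RNA came from mouse splenic B cells of 4 groups with 3 samples each. The knockout groups were B1-8hi:Sub1fl/fl-Mb1-Cre cells, stimulated or resting, and the control groups were B1-8hi:Sub1fl/fl cells without Cre, stimulated or resting. Every group thus carried B1-8hi, a knock-in antibody heavy chain that binds the hapten NP, together with floxed alleles of Sub1, the gene of the chromatin protein PC4. Mb1-Cre is expressed from the Cd79a locus in the B lineage and is itself an insertion in that gene, so loss of Sub1, presence of Cre and a lowered Cd79a cannot be told apart in any knockout comparison. Stimulated cells had been cultured for 72 h with the cytokines IL-2 (at 100 U/mL), IL-4 (at 5 ng/mL) and IL-5 (at 1.5 ng/mL). The culture also held CD40 ligand at 0.2 ng/mL and the antigen NP-ficoll at 0.01 ng/mL. The labels used here give no age and name no individual animals for the 3 samples of a group. The p-values therefore rest on variation among these samples, which could be technical, except that control replicate 1 differed in sex-linked signal, as given below.

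In a healthy cell the survival proteins BCL2, BCL-XL (the product of Bcl2l1) and MCL1 hold BAX and BAK in check and bind BH3-only proteins. When BH3-only proteins such as BIM (from Bcl2l11), PUMA (from Bbc3) or NOXA (from Pmaip1) outnumber them, BAX and BAK assemble into pores and cytochrome c leaves the mitochondria. In mouse B cells, Bim removes self-reactive and unsupported cells, Mcl1 is needed for germinal centre and plasma cells, and CD40 signalling is known to raise Bcl-xL.

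A level below is the log2 intensity of a probe relative to the 75th percentile of its array, and a change is a difference of such levels with its standard error (SE). Levels of different probes cannot be ranked against each other. Changes were tested with limma over 22981 features, with adjusted p under 0.05 as the threshold. Between 24.3% and 76.8% of spots were well above background, the lowest share on control stimulated replicate 2, and no spot was saturated. Replicates 1 and 2 of all groups shared slide 1 and replicate 3 lay on slide 2, so changes within each slide are given where the results turn on them. Control replicate 1, resting and stimulated, was the only control or knockout sample with signal of the Y-linked genes Ddx3y and Eif2s3y. On its arrays neither probe of Xist, a gene expressed in female cells, was well above background, while both were on every knockout array. Sex-linked signal thus differed within the control groups, and its part in the results was not tested.

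For Sub1, the floxed gene, the brighter probe gave a change with knockout of -1.21 in stimulated cells (SE 0.19, limma adjusted p = 0.0114). In resting cells its change of -0.38 did not pass the test (adjusted p = 0.268), and the dimmer Sub1 probe passed in neither state, with changes of 0.09 in stimulated and -0.86 in resting cells. The brighter probe stayed well above background on 3 of 3 stimulated knockout arrays (mean level 6.84, against 8.05 in stimulated control cells). A lower level of Sub1 RNA, and not its absence, was thus read by this probe alone and in stimulated cells alone. B cell markers were well above background on all 3 arrays for 9 of 9 genes in every group except stimulated control cells, where it was 7 of 9.

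Stimulation changed the family in both genotypes, and the changes were largest for a survival gene and a death gene side by side. Bcl2l1 rose 4.64-fold in knockout and 9.19-fold in control cells, and Bcl2l11 rose 3.01-fold in knockout and 8.59-fold in control cells. The size of the Bcl2l11 changes depended on the background correction: with normexp background correction its log2 changes were 1.05 in knockout and 1.91 in control cells, against 1.59 and 3.1 as reported, and both still passed. Bax and Bak1 also rose in both genotypes, by smaller steps, while the brighter Mcl1 probe fell. In knockout cells 5 of the 10 genes passed the test, 4 higher and 1 lower. Among all features 16.1% passed in that comparison, 10.9% higher and 5.2% lower. In that comparison 5 genes had an unadjusted p under 0.05, where 27.5% of all features did. In control cells 6 of the 10 genes passed, 5 higher and 1 lower, where 27.8% of all features passed, 14.7% higher and 13.1% lower, and 7 genes had an unadjusted p under 0.05, where 36.7% of all features did. The median change of the 10 genes was 0.16 in knockout and 0.43 in control cells, beside 0.10 and 0.04 over all features.

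**Figure D1:**
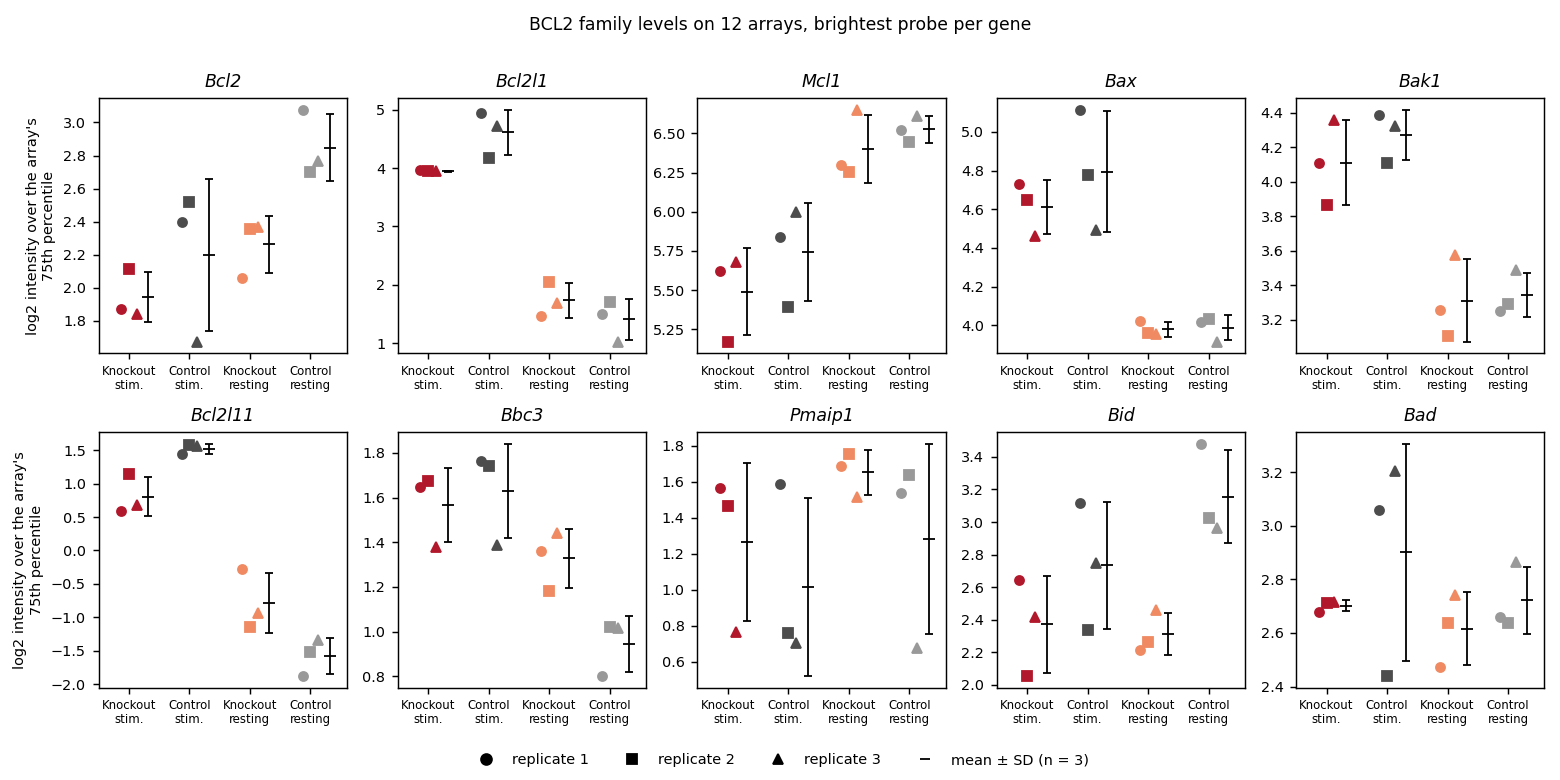
Level of each gene's brightest probe (log2 intensity over the array's 75th percentile) on the 12 arrays, with the marker shape giving the replicate and the bar the mean ± SD (n = 3) of each group. Every stimulated array lies above every resting array for Bcl2l1, Bcl2l11, Bax and Bak1, and below for Mcl1; the vertical scale differs between genes.

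Because Bcl2l11 and Bcl2l1 had the largest changes, the 250 bases upstream of their starts are shown from RefSeq for the GRCm38.p6 build, where both genes lie on chromosome 2. Capitals mark matches, on either strand, to 3 motifs: the FOXO motif GTAAACA, the NF-kB motif and the CCAAT box. The first Bcl2l11 window (chr2:128125788-128126037, plus strand) held 1 match to each, at 227, 114 and 57 bases before the start. The second Bcl2l11 window (chr2:128127325-128127574, plus strand) held 2 CCAAT boxes. The second Bcl2l1 window (chr2:152830718-152830967, minus strand) held 1 NF-kB match, 218 bases before the start.
Bcl2l11 start 1: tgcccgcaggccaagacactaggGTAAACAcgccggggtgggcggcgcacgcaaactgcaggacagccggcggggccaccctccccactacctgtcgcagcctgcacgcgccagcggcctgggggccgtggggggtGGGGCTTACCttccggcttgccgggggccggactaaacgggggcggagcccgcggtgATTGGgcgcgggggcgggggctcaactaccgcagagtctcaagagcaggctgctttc
Bcl2l11 start 2: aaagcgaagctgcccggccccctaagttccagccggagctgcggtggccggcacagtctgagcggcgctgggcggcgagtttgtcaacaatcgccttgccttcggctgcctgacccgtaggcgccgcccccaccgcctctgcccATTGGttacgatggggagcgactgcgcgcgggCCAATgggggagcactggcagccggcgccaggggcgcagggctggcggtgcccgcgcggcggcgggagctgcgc
Bcl2l1 start 2: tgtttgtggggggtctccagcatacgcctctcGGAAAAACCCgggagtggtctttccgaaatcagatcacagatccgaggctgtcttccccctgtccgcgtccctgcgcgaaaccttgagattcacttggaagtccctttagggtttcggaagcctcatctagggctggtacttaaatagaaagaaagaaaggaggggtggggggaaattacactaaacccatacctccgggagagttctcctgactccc
Of all 32851 promoter windows of this length, 3.17% held the FOXO motif, 4.11% the NF-kB motif and 33.8% the CCAAT box. The same windows were searched for the E-box CACGTG (6.02% of all windows), the Ikaros core TGGGAA (21.6%), the interferon regulatory factor motif (2.98%), the STAT motif TTCNNNGAA (7.02%), the TATA box TATAAA (12.4%) and the GC box GGGCGG (32.7%), which is not capitalised. Of those 6, only the GC box occurred in the 3 windows printed, with 3 matches in the first and 2 in the second Bcl2l11 window. The windows of the other 2 Bcl2l1 starts held none of the 9 motifs. Among the other genes with a window, the Mcl1 start had 1 NF-kB match, and the first of 3 Bbc3 starts had 2 overlapping NF-kB matches. The second Bbc3 start had 1 FOXO match, and the third had 1 E-box and 1 CCAAT box. The Bax start had 1 E-box and 1 Ikaros core, and the 2 Bad starts had 2 and 1 Ikaros cores, with 1 CCAAT box in the second. The Bcl2, Bak1 and Bid windows held none of these motifs other than the GC box, which Bak1 lacked too. Matches describe these letters and are not binding sites measured here, and a window without a match lacks only those letters.

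Among the survival genes, Bcl2l1 had levels of 3.96, 3.94 and 3.94 in stimulated knockout cells, against 1.46, 2.05 and 1.69 in resting knockout cells. In control cells it read 4.94, 4.18 and 4.71 after stimulation and 1.50, 1.70 and 1.02 at rest. Stimulated and resting groups did not overlap in either genotype, and the 3 stimulated knockout arrays were almost identical. The change with stimulation was 2.22 in knockout cells (SE 0.26, adjusted p = 0.000297) and 3.20 in control cells (SE 0.26, adjusted p = 1.71e-05) by limma. Within slides 1 and 2 it was 2.19 and 2.26 in knockout cells and 2.96 and 3.69 in control cells. The second Bcl2l1 probe was well above background on only 7 of 12 arrays, and its groups spread widely, from -1.51 to -0.94 in stimulated knockout cells, -1.74 to 0.35 in stimulated control cells, -2.44 to 0.31 in resting knockout cells and -3.20 to -1.32 in resting control cells.

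Mcl1, whose protein is short-lived and blocks BAK and BIM, moved the other way. Its brighter probe read 5.62, 5.17 and 5.68 in stimulated knockout cells, against 6.30, 6.26 and 6.65 in resting knockout cells. In control cells it read 5.84, 5.39 and 6.0 after stimulation and 6.52, 6.44 and 6.61 at rest. All stimulated arrays lay below all resting arrays of the same genotype. The probe fell by 0.91 on the log2 scale in knockout cells (SE 0.22, limma adjusted p = 0.0182) and by 0.78 in control cells (SE 0.22, adjusted p = 0.0228). The other Mcl1 probe gave changes of only -0.36 (adjusted p = 0.381) and -0.17 (adjusted p = 0.68), its groups overlapped in both genotypes, and neither passed the test, so the fall rests on 1 of 2 probes. The control call was lost without control stimulated replicate 2 (change -0.61, adjusted p = 0.0691) or without control resting replicate 1, 2 or 3 (adjusted p = 0.0817, 0.056 and 0.0761). The knockout call was lost without knockout stimulated replicate 2 (change -0.75, adjusted p = 0.14), knockout resting replicate 1 (adjusted p = 0.0559) or knockout resting replicate 3 (adjusted p = 0.0671).

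Bcl2, the founding survival gene of the family, read 1.87, 2.12 and 1.84 in stimulated knockout cells, against 2.06, 2.36 and 2.37 in resting knockout cells. In control cells it read 2.40, 2.52 and 1.67 after stimulation and 3.08, 2.70 and 2.77 at rest. The control groups did not overlap, and the lowest stimulated control array was replicate 3, on slide 2. The change with stimulation was -0.32 in knockout cells (SE 0.24, limma adjusted p = 0.475) and -0.65 in control cells (SE 0.24, 95% interval -1.19 to -0.12, adjusted p = 0.0716), so neither passed. Without control stimulated replicate 2 the control change was -0.81 and passed (adjusted p = 0.0387). It also passed with quantile normalization (-0.82, adjusted p = 0.0268) and with the percentile taken over spots detected on all arrays (-1.04, adjusted p = 0.00745).

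The pore-forming genes rose together in both genotypes. Bak1 read 4.11, 3.87 and 4.36 in stimulated knockout cells, against 3.26, 3.11 and 3.57 in resting knockout cells, and in control cells 4.38, 4.11 and 4.33 after stimulation and 3.25, 3.29 and 3.49 at rest. Its change was 0.80 in knockout cells (1.74-fold, SE 0.20, limma adjusted p = 0.0205) and 0.93 in control cells (1.90-fold, SE 0.20, adjusted p = 0.0054). Bax read 4.73, 4.65 and 4.46 in stimulated knockout cells, against 4.02, 3.96 and 3.96 in resting knockout cells. In control cells Bax read 5.12, 4.78 and 4.49 after stimulation and 4.02, 4.03 and 3.91 at rest. Neither gene's stimulated and resting groups overlapped, and the resting Bax levels lay close together in both genotypes. The change of Bax was 0.63 in knockout cells (1.55-fold, SE 0.19, adjusted p = 0.0446) and 0.81 in control cells (1.75-fold, SE 0.19, adjusted p = 0.0086).

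The Bax and Bak1 calls in knockout cells lay close to the threshold. The Bax call was lost when any 1 of the 3 knockout stimulated, 3 knockout resting or 3 control resting arrays was left out, with changes of 0.58 to 0.71 and adjusted p of 0.0611 to 0.216. The Bak1 call in knockout cells was lost without knockout stimulated replicate 1, 2 or 3 or knockout resting replicate 1 or 2, with changes of 0.67 to 0.92 and adjusted p of 0.0566 to 0.0983. With quantile normalization the knockout change was 0.26 for Bax (adjusted p = 0.345) and 0.49 for Bak1 (adjusted p = 0.0851), and the control change of Bax was 0.40 (adjusted p = 0.103). In control cells the Bak1 call was lost with median scaling (adjusted p = 0.13), no filter (adjusted p = 0.0544) and without both arrays of control replicate 1 (0.83, adjusted p = 0.0815), and the Bax call under the same settings (adjusted p = 0.196, 0.0841 and 0.0909). The detected-spot percentile (0.42, adjusted p = 0.0717) and slide 1 alone (adjusted p = 0.0512) also ended the control call of Bax.

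Among the BH3-only genes, Bcl2l11 read 0.59, 1.14 and 0.68 in stimulated knockout cells, against -0.28, -1.14 and -0.93 in resting knockout cells. In control cells it read 1.44, 1.57 and 1.56 after stimulation and -1.88, -1.52 and -1.34 at rest. The 4 groups followed each other without overlap, in the order stimulated control, stimulated knockout, resting knockout and resting control from high to low. The change with stimulation was 1.59 in knockout cells (SE 0.26, limma adjusted p = 0.00208) and 3.1 in control cells (SE 0.26, adjusted p = 1.98e-05). Slides 1 and 2 gave 1.58 and 1.61 in knockout cells, and 3.21 and 2.89 in control cells. Its resting intensities before scaling were 94.5 to 159 in knockout and 47.5 to 94.9 in control cells. In knockout cells the call was lost on slide 1 alone (adjusted p = 0.0624).

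Bbc3, a death gene that p53 and FOXO factors are known to induce, read 1.65, 1.67 and 1.38 in stimulated knockout cells, against 1.36, 1.18 and 1.44 in resting knockout cells. In control cells it read 1.76, 1.74 and 1.39 after stimulation and 0.80, 1.02 and 1.02 at rest. The knockout groups overlapped and the control groups did not. The change was 0.24 in knockout cells (95% interval -0.17 to 0.64, limma adjusted p = 0.48) and 0.69 in control cells (1.61-fold, SE 0.18, adjusted p = 0.017). The control call was lost without control stimulated replicate 1 (change 0.62, adjusted p = 0.0506), control resting replicate 1 (0.61, adjusted p = 0.0959) or knockout stimulated replicate 2 (0.69, adjusted p = 0.0516). It was also lost with the detected-spot percentile (0.30, adjusted p = 0.263), median scaling (adjusted p = 0.261), no filter (adjusted p = 0.141), slide 1 alone (adjusted p = 0.0604) and without both arrays of control replicate 1 (0.55, adjusted p = 0.191).

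The other BH3-only genes gave no call with stimulation in either genotype. Pmaip1, a p53 target whose protein binds MCL1, had changes of -0.39 in knockout cells (limma adjusted p = 0.546) and -0.27 in control cells (adjusted p = 0.648). Its levels spread widely in all groups but resting knockout: 0.76 to 1.57 in stimulated knockout, 0.70 to 1.59 in stimulated control, 1.52 to 1.76 in resting knockout and 0.68 to 1.64 in resting control cells. Bid, which caspase-8 cleaves to link death receptors to mitochondria, changed by 0.06 in knockout cells (adjusted p = 0.925) and -0.42 in control cells (adjusted p = 0.267). Bad, whose protein is held inactive by growth factor signalling through phosphorylation, changed by 0.09 (adjusted p = 0.868) and 0.18 (adjusted p = 0.628). Bad's dimmer probe gave -0.12 in knockout and 0.30 in control cells and did not pass either.

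**Figure D2:**
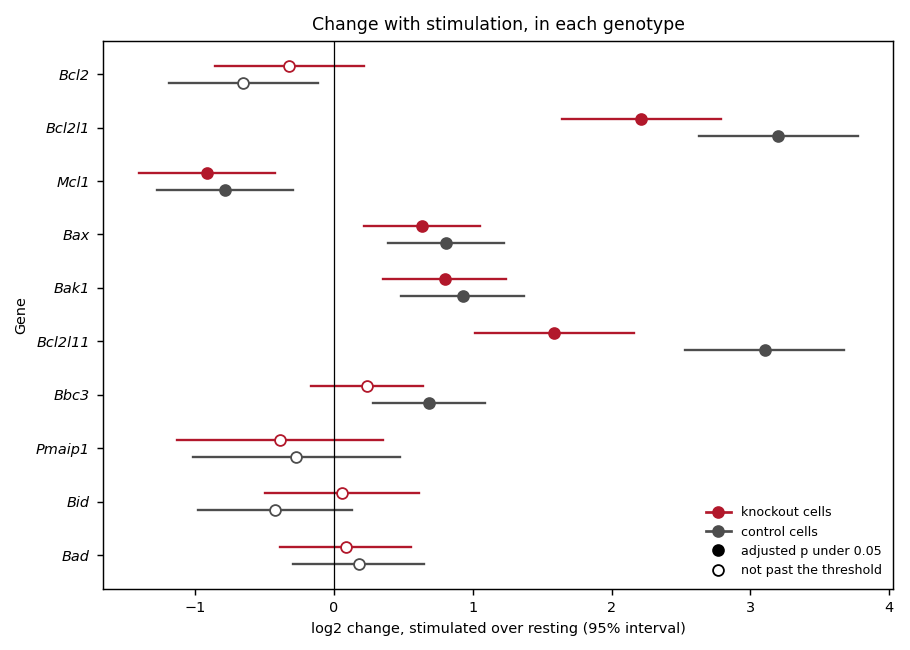
Change with stimulation (log2, stimulated over resting) of the 10 genes in knockout and control cells, with 95% intervals; filled points passed limma's adjusted p of 0.05. The intervals of Bcl2l1 and Bcl2l11 lie far above 0 in both genotypes, and Bbc3 passed in control cells alone.

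Stimulated and resting groups did not overlap for 5 of 10 genes in knockout cells, 4 above and 1 below, where 34% of all features did not overlap, 21.9% above and 12.1% below. In control cells they did not overlap for 7 of 10, 5 above and 2 below, where 39.9% of all features did not, 20.3% above and 19.6% below. Marker genes of other cells moved with stimulation too. Summed on the linear scale over the array's 75th percentile, 6 plasma cell markers reached 196.5 to 257.8 in stimulated knockout cells, 397 to 633 in stimulated control cells, 159 to 218 in resting knockout cells and 89.6 to 108.8 in resting control cells. Sums of 9 B cell markers were 531 to 646, 491 to 691, 692 to 817 and 1033 to 1208 in the same order. Sums of 6 NK cell markers were 217.8 to 421.9, 35.0 to 36.5, 7.39 to 10.4 and 5.28 to 8.86, with Gzmb and Gzma called higher with stimulation in both genotypes. Sums of 8 T cell markers were 80.2 to 92.9, 55.5 to 68.5, 12.1 to 23.1 and 13.4 to 17.2. Of those 8 only Thy1 and Lck were called higher with stimulation, in both genotypes, and Cd8a was called lower in control cells, where no stimulated array had it well above background. Sums of 11 myeloid markers were 30.1 to 37.2, 10.9 to 27.0, 91.3 to 142 and 45.7 to 78.1. Sums of 4 erythroid markers were 3.35 to 12.3, 2.45 to 6.69, 70.7 to 307.5 and 8.13 to 94.9, and those of 3 platelet markers 0.906 to 1.295, 0.298 to 1.64, 8.81 to 12.05 and 4.64 to 10.55. Their part in the changes of the family was not tested, and in bulk RNA fewer cells of a type and less RNA per cell cannot be told apart.

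**Figure D3:**
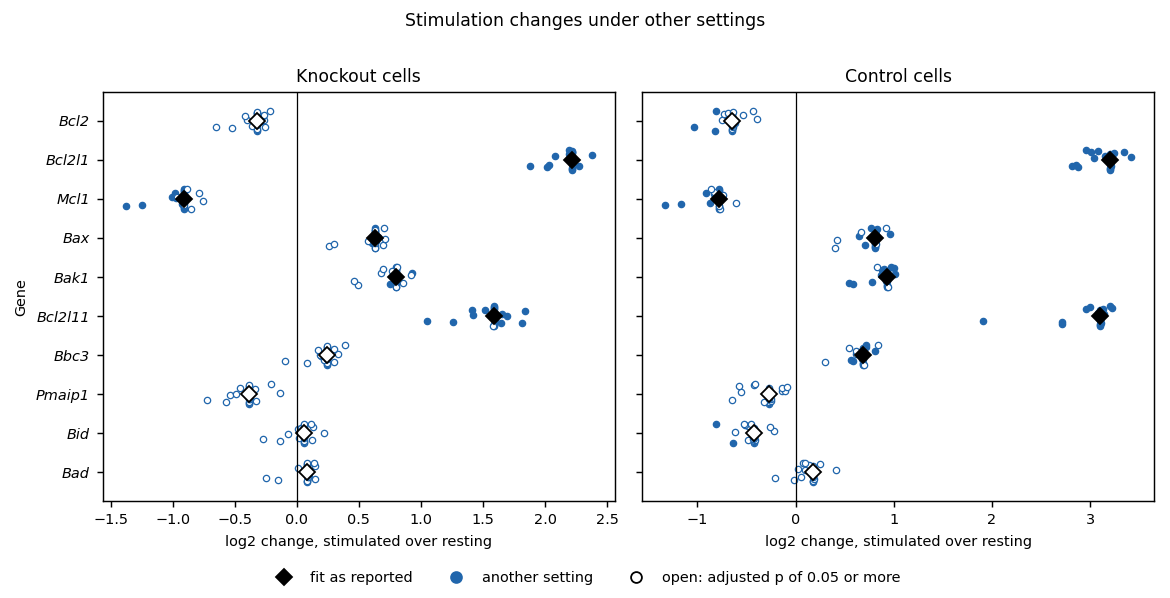
Change with stimulation (log2, stimulated over resting) of each gene as reported (diamonds) and under 26 other settings of scaling, filtering, blocking and arrays left out (points), in knockout cells on the left and control cells on the right; open symbols have an adjusted p of 0.05 or more. Bcl2l1 passed under every setting in both genotypes and Bcl2l11 under every setting in control cells, whereas Bax and Bak1 in knockout cells lost their call under 16 and 11 settings.

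The knockout comparison in stimulated cells asks whether B cells of the Sub1fl/fl-Mb1-Cre genotype carry other levels of survival and death genes after the same culture. None of the 10 genes passed limma's adjusted threshold, where 3.46% of all features passed (1.21% higher and 2.26% lower; 8.12% with the replicate number as a block, still with none of the 10), and 2 had an unadjusted p under 0.05, where 22.1% of all features did. Those 2 were Bcl2l11 and Bcl2l1, which were also the 2 of 10 whose groups did not overlap, both with the knockout lower. Over all features 25% did not overlap, 10.9% with the knockout higher and 14.1% with it lower. The median change of the 10 genes was -0.23, beside -0.02 over all features.

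Bcl2l11 averaged 0.80 ± 0.29 in stimulated knockout cells and 1.52 ± 0.07 in stimulated control cells (SD, n = 3 each). Its change was -0.72 (95% interval -1.29 to -0.15, limma adjusted p = 0.15), and it was -0.64 within slide 1 and -0.88 within slide 2. Bcl2l1 averaged 3.95 ± 0.01 in stimulated knockout cells and 4.61 ± 0.39 in stimulated control cells, a change of -0.66 (95% interval -1.23 to -0.09, adjusted p = 0.175), with -0.61 and -0.77 within slides 1 and 2. Both were lower on 3 of 3 knockout arrays than on any control array.

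For the other 8 genes the groups overlapped. Mcl1 had a change of -0.25 (adjusted p = 0.506 by limma), and its second probe -0.39 (adjusted p = 0.341). Bid had -0.36 (adjusted p = 0.404), Bcl2 -0.25, Bad -0.20, Bax -0.18, Bak1 -0.16 and Bbc3 -0.06. Among the main probes Pmaip1 alone was positive, at 0.25 (adjusted p = 0.67), and Bad's dimmer probe gave 0.02. The 95% interval of Bax was -0.60 to 0.24 and that of Bak1 -0.60 to 0.28. With other scalings 8 of the 10 changes turned sign. Bcl2l11 ranged from -1.28 to -0.32 and kept its sign, as did Bcl2l1. The median of all features moved with the scaling too, to -0.58 with median scaling and to 0.39 with the percentile over spots detected on all arrays.

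Markers of other cells differed between these groups. Summed levels of 6 NK cell markers were 217.8 to 421.9 in stimulated knockout cells, against 35.0 to 36.5 in stimulated control cells, with 3 of 6 called higher. Those called were Gzma, Gzmb and Nkg7, and Gzma had the highest level (mean 7.60 in stimulated knockout cells). Ncr1, Klrb1c and Prf1 had changes of 1.29, 2.14 and 0.50 with overlapping groups and were not called. Klrk1 and Klrd1 were not well above background on any stimulated control array. Of 11 myeloid markers 4 were called higher in the knockout, and C1qa, Cd14 and S100a8 were not well above background on any stimulated control array. Cd14 was well above background on only 1 of 3 stimulated knockout arrays, and its change was -0.26 (limma adjusted p = 0.841). Itgam had a change of 0.04, with overlapping groups. Cd3g was called higher (2.24, adjusted p = 0.0481) as 1 of 8 T cell markers, and the T cell sums did not overlap. Cd3d, Cd28, Lck and Thy1 (2.18, 1.63, 0.78 and 0.36) lay higher in the knockout without overlap but were not called. Cd4, Cd3e and Cd8a had changes of -0.18, 0.39 and 0.85 with overlapping groups. Hba-a1 was called higher (4.63, adjusted p = 0.0437) as 1 of 4 erythroid markers. No stimulated control array had Hba-a1 well above background, so the size of its change is set by background. Hbb-bt, Slc4a1 and Alas2 had changes of -0.43, 0.30 and 0.20 with overlapping groups, and the erythroid sums overlapped. Of 6 plasma cell markers 5 were called lower in the knockout, and of 9 B cell markers 2, Cd79a and Fcer2a. Whether they bear on the lower Bcl2l11 and Bcl2l1 levels was not tested.

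In resting cells the knockout again gave no call among the 10 genes, where 0.0131% of all features passed limma's adjusted threshold (0.0087% higher and 0.00435% lower), and 3 genes had an unadjusted p under 0.05, where 19.7% of all features did. Groups did not overlap for 4 of the 10 genes, 2 higher and 2 lower in the knockout, where 36.7% of all features did not overlap, 9.8% higher and 26.9% lower. The median change of the 10 genes was -0.02, beside -0.21 over all features.

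Bid had the change of greatest size. It read 2.22, 2.26 and 2.46 in resting knockout cells, against 3.48, 3.02 and 2.96 in resting control cells, a change of -0.84 (95% interval -1.40 to -0.29, limma adjusted p = 0.2), with -1.01 and -0.50 within slides 1 and 2. Every knockout array lay below every control array. Bcl2 was also lower on all 3 knockout arrays, with a mean of 2.26 ± 0.17 in resting knockout cells and 2.85 ± 0.20 in resting control cells (SD, n = 3 each) and a change of -0.59 (95% interval -1.12 to -0.05, adjusted p = 0.238).

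Bcl2l11 and Bbc3 lay higher on all 3 knockout arrays. Bcl2l11 averaged -0.79 ± 0.45 in resting knockout cells and -1.58 ± 0.28 in resting control cells (SD, n = 3 each), a change of 0.79 (95% interval 0.22 to 1.36, limma adjusted p = 0.214), with 0.99 and 0.41 within slides 1 and 2. Bbc3 averaged 1.33 ± 0.13 in resting knockout cells and 0.95 ± 0.13 in resting control cells, a change of 0.38 (adjusted p = 0.262). The remaining 6 genes overlapped, with changes of 0.37 for Pmaip1, 0.32 for Bcl2l1, -0.12 for Mcl1, -0.03 for Bak1 and -0.01 for Bax, and with Bad between Mcl1 and Bak1 (adjusted p = 0.738). Bad's dimmer probe had the other sign, with a change of 0.44 (limma adjusted p = 0.308), and the second Mcl1 probe gave -0.20. Other scalings moved the median of all features to between -0.81 and 0.14. Under them Bcl2l11 ranged from 0.19 to 1.15, Bcl2 from -1.19 to -0.23 and Bid from -1.45 to -0.49, and the signs of the other 7 turned. Summed myeloid markers were 91.3 to 142 in resting knockout cells against 45.7 to 78.1 in resting control cells, without overlap. None of the 11 myeloid markers was called. Itgam had a change of -0.35 and overlapped, as did Marco, S100a8 and S100a9 (1.05, 1.69 and 1.41). The other myeloid markers lay higher in the knockout without overlap. Summed plasma cell markers were 159 to 218 against 89.6 to 108.8 and summed B cell markers 692 to 817 against 1033 to 1208, both without overlap. Every B cell marker had a negative change, none was called, and Ms4a1 and Cd79b overlapped. The 6 plasma cell markers went both ways and none was called. Jchain (1.44) and Tnfrsf17 (2.05) lay higher in the knockout without overlap, Irf4 (-0.55) lay lower, and Prdm1, Xbp1 and Sdc1 overlapped. Summed erythroid markers were 70.7 to 307.5 against 8.13 to 94.9 and overlapped, as did NK cell markers. Their part in these levels was not tested.

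**Figure D4:**
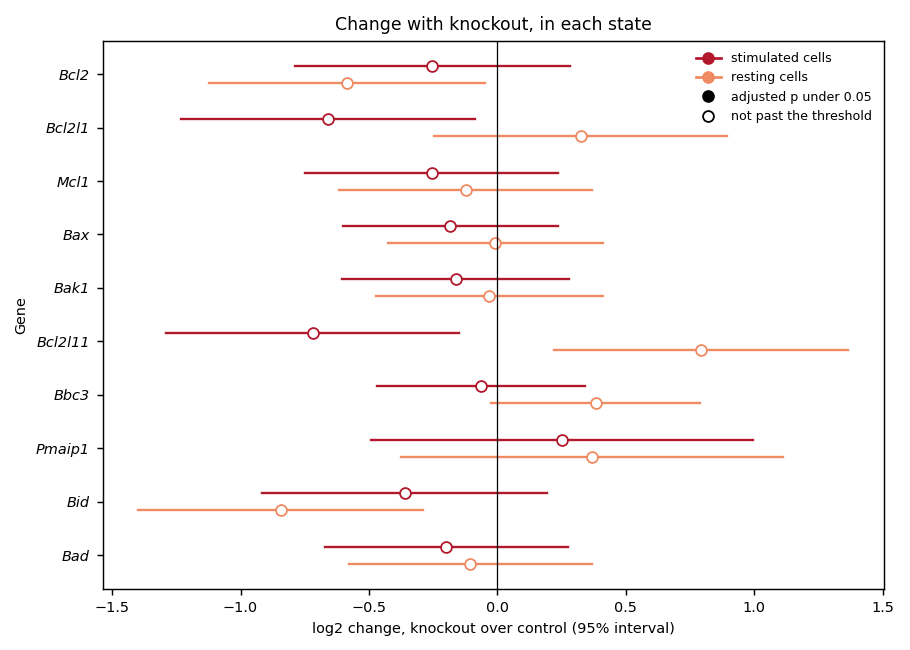
Change with knockout (log2, knockout over control) of the 10 genes in stimulated and in resting cells, with 95% intervals; all points are open because none passed limma's adjusted p of 0.05. Bcl2l11 lies at -0.72 in stimulated and 0.79 in resting cells, on opposite sides of 0.

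The interaction tests whether the response to stimulation differed between genotypes. None of the 10 genes passed limma's adjusted threshold, where 0.144% of all features passed (0.0522% higher and 0.0914% lower), and 2 had an unadjusted p under 0.05, where 10.6% of all features did. Bcl2l11 had the change of greatest size, -1.51 (SE 0.37, 95% interval -2.32 to -0.70, unadjusted p = 0.00179, adjusted p = 0.145), a 2.85-fold ratio between the control and knockout responses on the linear scale that did not pass. It was -1.63 within slide 1 and -1.28 within slide 2. When features were limited to probes well above background on all 12 arrays, its adjusted p was 0.0258. Bcl2l1 had -0.98 (SE 0.37, adjusted p = 0.352), with -0.76 and -1.43 within slides 1 and 2. For the other 8 genes the interaction lay between -0.45 for Bbc3 and 0.48 for Bid, with adjusted p of 0.608 and 0.726.

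Of 16 other genes of the BCL2 family and relatives, 11 were tested. Stimulation lowered 2 in knockout cells and lowered 4 and raised 1 in control cells. Among all features it lowered 5.2% in knockout cells, and lowered 13.1% and raised 14.7% in control cells. Bmf, a BH3-only gene, fell by 2.45 in knockout cells (SE 0.47, limma adjusted p = 0.00541) and by 3.18 in control cells (SE 0.47, adjusted p = 0.000567). It read -0.60 to -0.21 in stimulated knockout cells against 1.63 to 2.27 in resting knockout cells, and -2.23 to -0.06 in stimulated control cells against 2.06 to 2.46 in resting control cells. Its stimulated arrays thus lay far below the resting ones, opposite to Bcl2l11, and 1 of 3 stimulated control arrays was not well above background. Bcl2l14 fell by 2.32 in knockout cells (adjusted p = 0.00346), and in control cells it was at least 2.86-fold lower, since no stimulated control array was well above background (adjusted p = 0.000438).

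Bcl2a1d and Bcl2a1c, copies of the survival gene A1, fell in control cells, by 1.12 (SE 0.25, limma adjusted p = 0.00679) and 1.38 (SE 0.31, adjusted p = 0.00673). The A1 copies are near-identical in sequence, so a probe named for one may read another. In knockout cells their changes were -0.18 and -0.42 and did not pass. Bnip3, named here after its values were seen, was the 1 gene that rose, in control cells, with a change of 2.01 (SE 0.62, adjusted p = 0.0333), and its stimulated control levels ran from 2.06 to 5.01, with 2.86 within slide 1 and 0.31 within slide 2. No gene of this list passed for the knockout in stimulated or resting cells or for the interaction. The smallest p was that of Bnip3l in stimulated cells (-0.99, adjusted p = 0.0663), of Bcl2l14 in resting cells (0.82, adjusted p = 0.271) and of Bcl2a1d for the interaction (0.94, adjusted p = 0.363). The list's median change was -0.18 in knockout and -0.31 in control cells with stimulation, beside 0.10 and 0.04 over all features.

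**Figure D5:**
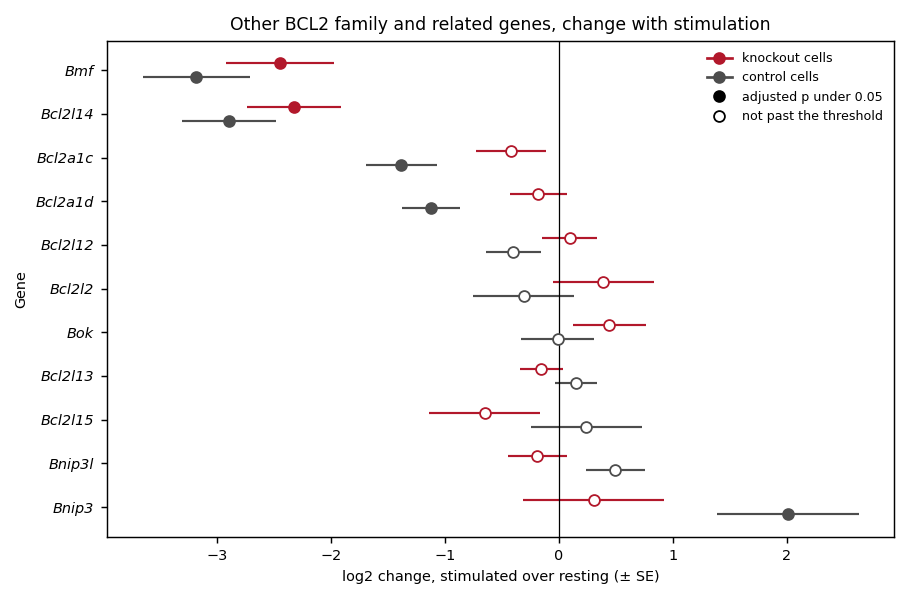
Change with stimulation (log2, stimulated over resting, ± SE) of the 11 other BCL2 family and related genes that were tested, in knockout and control cells; filled points passed limma's adjusted p of 0.05. Bmf and Bcl2l14 lie below -2 in both genotypes, and the value of Bcl2l14 in control cells is set by background.

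Downstream of the family, 20 apoptosome, caspase and IAP genes were all tested. With stimulation 6 rose and 1 fell in knockout cells, and 9 rose and 3 fell in control cells, with list medians of 0.41 and 0.45. Over all features 10.9% rose and 5.2% fell in knockout cells, and 14.7% rose and 13.1% fell in control cells. Cycs, the gene of cytochrome c, rose by a change of 1.02 in knockout cells (limma adjusted p = 0.00638) and 1.23 in control cells (adjusted p = 0.0011). The mitochondrial channel genes rose as well, Vdac1 by 0.87 and 1.03 and Vdac3 by 1.04 and 0.96, in knockout and control cells in that order. Endog, a mitochondrial nuclease gene, rose by 1.37 in control cells (adjusted p = 0.00224), and Birc3, the gene of the ubiquitin ligase cIAP2, fell by 0.98 in knockout cells (adjusted p = 0.00729). None passed for the knockout, where Endog had -1.01 in stimulated cells (adjusted p = 0.0565), or for the interaction, where Casp6 had 0.52 (adjusted p = 0.589).

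Of 12 death receptor pathway genes 11 were tested, and 2 passed for the knockout in stimulated cells, both higher. Of all features 1.21% passed higher in that comparison. Tnfrsf1a, a TNF receptor gene, averaged 0.20 ± 0.14 in stimulated knockout cells and -1.91 ± 0.02 in stimulated control cells (SD, n = 3 each), a change of 2.11 (SE 0.20, limma adjusted p = 0.00152). Fasl, the Fas ligand gene of cytotoxic lymphocytes, averaged 0.08 ± 0.66 in stimulated knockout cells and -1.87 ± 0.48 in stimulated control cells, a change of 1.95 (SE 0.42, adjusted p = 0.0343), with 1.33 and 3.19 within slides 1 and 2. Each was well above background on 1 of 3 stimulated control arrays, and the NK cell and myeloid marker sums given above were higher in the same knockout arrays, whose part was not tested. In resting cells Tnfrsf1a had a change of 1.42 (adjusted p = 0.0823). With stimulation 2 rose and 1 fell in knockout cells: Mlkl by 1.52 and Fasl by 1.44 upward, and Tnfrsf1a downward by a change of -0.76. In control cells 2 rose, Mlkl by 1.82 and Ripk1 by 0.85, and 2 fell, with changes of -1.45 for Tnfrsf1a and -1.60 for Fas. Mlkl and Fasl were well above background on only 2 of 3 resting knockout arrays, and Mlkl and Fas on only 2 of 3 stimulated control arrays. For the interaction none passed, with Fas at 1.34 (adjusted p = 0.296). List medians with stimulation were 0.23 and -0.07 in knockout and control cells. The share of all features that passed with stimulation was 16.1% in knockout and 27.8% in control cells.

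Of 13 p53 pathway genes 12 were tested, and 4 rose and 1 fell with stimulation in each genotype. Beside these, 10.9% of all features rose and 5.2% fell in knockout cells, and 14.7% rose and 13.1% fell in control cells. Cdkn1a, the cell cycle inhibitor p21, rose by 1.55 in knockout cells (limma adjusted p = 0.00201) and 1.81 in control cells (adjusted p = 0.000358). Phlda3 rose by 2.07 and 2.94 and Ccng1 by 1.26 and 1.12 in knockout and control cells, and Sesn1 had changes of -1.72 and -1.95. Phlda3 was well above background on 2 of 3 resting control arrays. None passed for the knockout, where Aen had -0.57 in stimulated cells (adjusted p = 0.156) and Cdkn1a 0.94 in resting cells (adjusted p = 0.183), or for the interaction, where Zmat3 had 0.84 (adjusted p = 0.572). List medians with stimulation were 0.08 and 0.39 in knockout and control cells.

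All 16 upstream signals and regulators of the family were tested, and with stimulation 4 fell in knockout and 5 in control cells while none rose. Among all features 16.1% passed in either direction in knockout and 27.8% in control cells, with 5.2% and 13.1% falling. Nfkb2 had changes of -2.29 in knockout cells (limma adjusted p = 0.000169) and -2.84 in control cells (adjusted p = 2.13e-05), and Relb -1.43 and -2.18; both encode subunits of the alternative NF-kB pathway. Cd40, the receptor engaged in the culture, had -1.30 and -1.76, and Foxo1, a factor known to induce Bcl2l11, -0.89 and -0.85. None passed for the knockout, where Usp9x, which removes ubiquitin from MCL1, had -1.25 in stimulated cells (adjusted p = 0.0827) and Tnfrsf13b -0.68 in resting cells (adjusted p = 0.223), or for the interaction, where Relb had 0.75 (adjusted p = 0.422). List medians with stimulation were 0.08 and -0.26 in knockout and control cells. Without both arrays of control replicate 1, control calls with stimulation numbered 2 of the other family genes, 3 of the apoptosome list, 3 each of the death receptor and p53 lists and 5 of the upstream list.

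The genes whose levels followed each called member most closely over the 12 arrays were picked by Pearson r among 12285 named genes. The arrays share 4 groups, a scaling and 2 slides, so these values are descriptions. For Bcl2l1 they were Csf2rb and Csf2rb2, near-identical cytokine receptor genes whose probes may read each other, and Alpl, each with r of 0.99. For Bcl2l11 they were the long noncoding RNA gene Morrbid, Vegfa and Epcam, each with r of 0.97, and Morrbid lies on the same chromosome with 1 gene between it and Bcl2l11 in the RefSeq table. For Mcl1 they were Osbpl5, Syk and Dennd6a with r of 0.98. For Bax they were Memo1, Ranbp1 and Lap3, and for Bak1 Ckap2, Wdr62 and Ethe1, all with r of 0.985 or more. For Bbc3 they were Mcrip2 (0.96), Fam89a (0.95) and Brip1 (0.93).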

How the data were processed

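RNA of 12 samples in 4 labelled groups was hybridised to Agilent 1-colour mouse arrays. The values used are the deposited processed Cy3 signals, background-subtracted intensities on a linear scale, written per the file headers by Agilent Feature Extraction 10.7.3.1, whereas the submitters' processing notes name version 9.1. The deposited flags for outlier, saturated and well-above-background spots, stored as 0 or 1 per the file headers, were used as other information on each spot. The series matrix values, deposited by the authors as intensity, differed from the scanner values by at most 0.497% and served as an alternative.

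Signals of outlier spots were dropped. The remaining values were put on the log2 scale against the 75th percentile of the 59305 spots other than controls on their array, and replicate spots of a probe were combined by their mean. A probe entered the tests if every array of some group had it well above background. Transcript accessions were matched to RefSeq genes of GRCm38.p6, which named 26413 of 55681 probes. A gene was represented by its brightest probe, and probes with no name stayed as features of their own, giving 22981 features. The tests used limma 3.58.1 (R 4.3.3; lmFit and eBayes on 4 group means, 8 residual degrees of freedom), adjusted by Benjamini-Hochberg over all features. The number of arrays limits the precision. Gene lists and members were chosen with earlier results of these data known. The text names all 10 genes, up to 4 called genes per list and comparison or the 1 with the smallest p, and the 3 genes nearest each called member. One gene that this rule picks is not reported here. Promoter windows came from RefSeq (9 of 10 genes, 15 starts). The procedure was tested on simulated data. The knockout comparison and the stimulation comparison of a genotype share arrays with each other.

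Samples with the same replicate number had deviations that correlated above 0.1 for every pair when knockout and control were compared after stimulation (0.35, 0.33 and 0.48), and likewise for the control response to stimulation (0.42, 0.43 and 0.51). Not every pair did so for the knockout comparison in resting cells (-0.12, 0.20 and 0.39) or the knockout response to stimulation (0.003, 0.15 and 0.39). The labels do not say what the number marks, and the reported tests did not pair samples by it. It entered only as a block in an alternative fit. Replicate 3 of every group lay on a different slide from the other replicates, so these correlations cannot tell pairing from a shared slide. Alternatives covered blocks, scaling, background correction, filters, probes and arrays left out. The omission of control replicate 1 in both states and the use of slide 1 alone were chosen after seeing the data.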

Additional observations from a re-analysis of the deposited data

Results flagged for a closer look

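Bcl2l11 was flagged because its knockout and control arrays separated in opposite directions in the 2 states, though no test passed. All 3 stimulated knockout arrays lay below all 3 stimulated control arrays, and all 3 resting knockout arrays lay above all 3 resting control arrays. Over all features 25% did not overlap between genotypes in stimulated and 36.7% in resting cells, and the share that separated in opposite directions was not computed. The resting intensities of Bcl2l11 before scaling were dim, 94.5 to 159 in knockout and 47.5 to 94.9 in control cells. The knockout change was -0.72 in stimulated cells (adjusted p = 0.15) and 0.79 in resting cells (adjusted p = 0.214), and the test of their difference, the interaction, gave -1.51 (SE 0.37, limma adjusted p = 0.145), which did not pass. It was -1.63 within slide 1 and -1.28 within slide 2. Over all 25 alternatives the interaction lay between -1.69 and -0.86, smallest with normexp background correction (-0.86) and quantile normalization (-0.90), with adjusted p from 0.0258 to 0.704. Summed myeloid and plasma cell markers did not overlap between genotypes in either state, and NK and T cell sums did not overlap in stimulated cells only. B cell sums did not overlap in resting cells only, with 692 to 817 in knockout against 1033 to 1208 in control cells. In resting cells single plasma cell markers went both ways, with Jchain at 1.44 and Irf4 at -0.55, and none was called. No myeloid or B cell marker was called in resting cells either. The part of these markers was not tested.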

How the results depend on the processing

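Of 1290 repeats of a gene's change under 26 alternatives (25 for the interaction), 1222 stayed on the same side of the threshold, 59 lost a call and 9 gained one, and no called change turned sign. Bcl2l1 stayed called for stimulation under all 26 in both genotypes. The number of genes called for stimulation in knockout cells, 5 as reported, was 3 with only the 2 groups compared, 3 with quantile normalization, 2 with median scaling, 3 with the percentile over spots detected on all arrays, 2 with no filter and 1 on slide 1 alone, and ranged from 2 to 5 when single arrays were left out. For control cells, 6 as reported, it was 2 with median scaling, 2 with no filter, 2 without both arrays of control replicate 1 and 3 on slide 1 alone, and ranged from 4 to 6 without single arrays. Settings that leave out arrays or groups use fewer samples, and the cause of the others was not tested. For the interaction it was 1 with the filter on all 12 arrays, a test over fewer features, and 0 otherwise. With the replicate block, 5 genes were called for stimulation in knockout cells, 6 in control cells and 0 in each other comparison, and no member's call changed. For Bcl2, control calls were gained with quantile normalization, the percentile over detected spots, normexp, the filter on all 12 arrays, trend and robust settings and without control stimulated replicate 2, and Bid gained a call with quantile normalization (-0.64) and the detected-spot percentile (-0.81). Counts over all features ranged, over all alternatives, from 6 on slide 1 alone to 2349 with the detected-spot percentile for the knockout in stimulated cells (796 as reported), from 1486 to 4942 for stimulation in knockout cells (3692), from 3346 to 8519 for stimulation in control cells (6397) and from 0 to 335 for the interaction (33). For the knockout in resting cells, 3 as reported, the count was 0 to 12 without single arrays, 41 with the replicate block and over 100 with the trend and robust settings, the highest. Dim probes and 3 arrays a group limit what could be called.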
